A study of Mus musculus with 6 samples.

Results

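Chemokines are small secreted proteins that guide migrating white blood cells, and each acts through one or more G protein-coupled receptors on the cells it attracts. Families are named by the spacing of conserved cysteines (CC, CXC, CX3C and XC), and a further set of atypical receptors binds chemokines without the usual G protein signal and removes them from the tissue. In the pregnant uterus these genes are known for controlling which white blood cells enter the muscle and the lining of the womb around birth. The genes described here were all rows of the deposited table whose symbol is a Ccl, Cxcl, Cx3cl1, Xcl1, Ccr, Cxcr, Cx3cr1, Xcr1, Ackr or Ccrl2 name, which gave 61 of 55055 genes, 38 of them ligands and 23 receptors. The platelet chemokines Pf4 and Ppbp carry other symbols and are given only for comparison.

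Poly(A)-selected RNA was sequenced from myometrium, the smooth muscle wall of the uterus, of pregnant mice in which Tcf23, a gene for a basic helix-loop-helix protein, had been knocked out by CRISPR/Cas9 (KO, 3 libraries), and of wild-type pregnant mice (WT, 3 libraries). Each library came from a different animal, per the series design. The sample labels give the stage as E19.5 and the design text as gestational day 19. Neither group is described as treated, and the sources used here give no strain, age of the mothers or edited allele. Total counts were 65036402, 55643651 and 39939686 in KO replicates 1, 2 and 3, and 47345181, 52733490 and 55236312 in WT replicates 1, 2 and 3. Tcf23 had 0, 2 and 1 counts in the KO libraries and 4203, 5970 and 3360 counts in the WT libraries, which matches the genotype labels. Summed smooth muscle markers (8 genes, none at 0 in all libraries) spanned 14618 to 37186 CPM (the count scaled to a common library size) in KO libraries and 26142 to 30531 CPM in WT libraries, and KO replicate 3 was the lowest of the 6. Placental and fetal membrane markers (10 genes, none at 0 in all libraries) summed to 301.8, 8.96 and 0.537 CPM in KO replicates 1, 2 and 3, against 30.8 to 40.3 CPM in WT libraries. By this sum KO replicate 1 stood apart and KO replicates 2 and 3 lay below the WT range. Tpbpa supplied 76.4% of it. KO replicate 1 was the highest library for Tpbpa, Prl7d1, Rhox5 and Ctsj, and WT replicate 2 for Prl3b1, Prl8a8, Psg21 and Psg23.

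No chemokine or receptor gene passed the edgeR quasi-likelihood test after Benjamini-Hochberg adjustment over all genes, but the genes that came nearest leaned towards higher values in KO. Of the 61 genes, 48 had enough counts to be tested. Adjusted calls were 0 higher and 0 lower among these 48, where the background over all 19599 tested genes was 0% called higher and 0.0204% called lower. At an unadjusted edgeR p under 0.05, 11 of 48 were higher in KO (22.9%), against 5.27% of all tested genes, and 1 was lower (2.08%), against 3.29%. The 11 were Ccl25, Cx3cr1, Cxcl5, Ccl3, Xcl1, Cxcr2, Ccr10, Ccr7, Ccl22, Ccl28 and Ccl5, and the 1 was Ackr4. Without KO replicate 1, 11 were higher and 3 lower at that p: Ccl5 was no longer among the higher ones, Ccl21a passed the count filter and joined them, and Ccl11 and Cxcl12 joined Ackr4. The median log2 change of the 48 was 0.32, against 0.01 over all tested genes, and 37 of 48 fold changes were positive (77.1%, against 52.1%). DESeq2 on the same counts called 6 of 49 genes higher (background 1.22%) and 1 lower (background 0.67%). The 6 were Ccl25, Cxcl5, Cx3cr1, Cxcr2, Ccl3 and Ccl21a, and the 1 was Ackr4. The values are from bulk tissue, in which more or fewer cells of a type and more or less RNA per cell cannot be told apart.

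**Figure D1:**
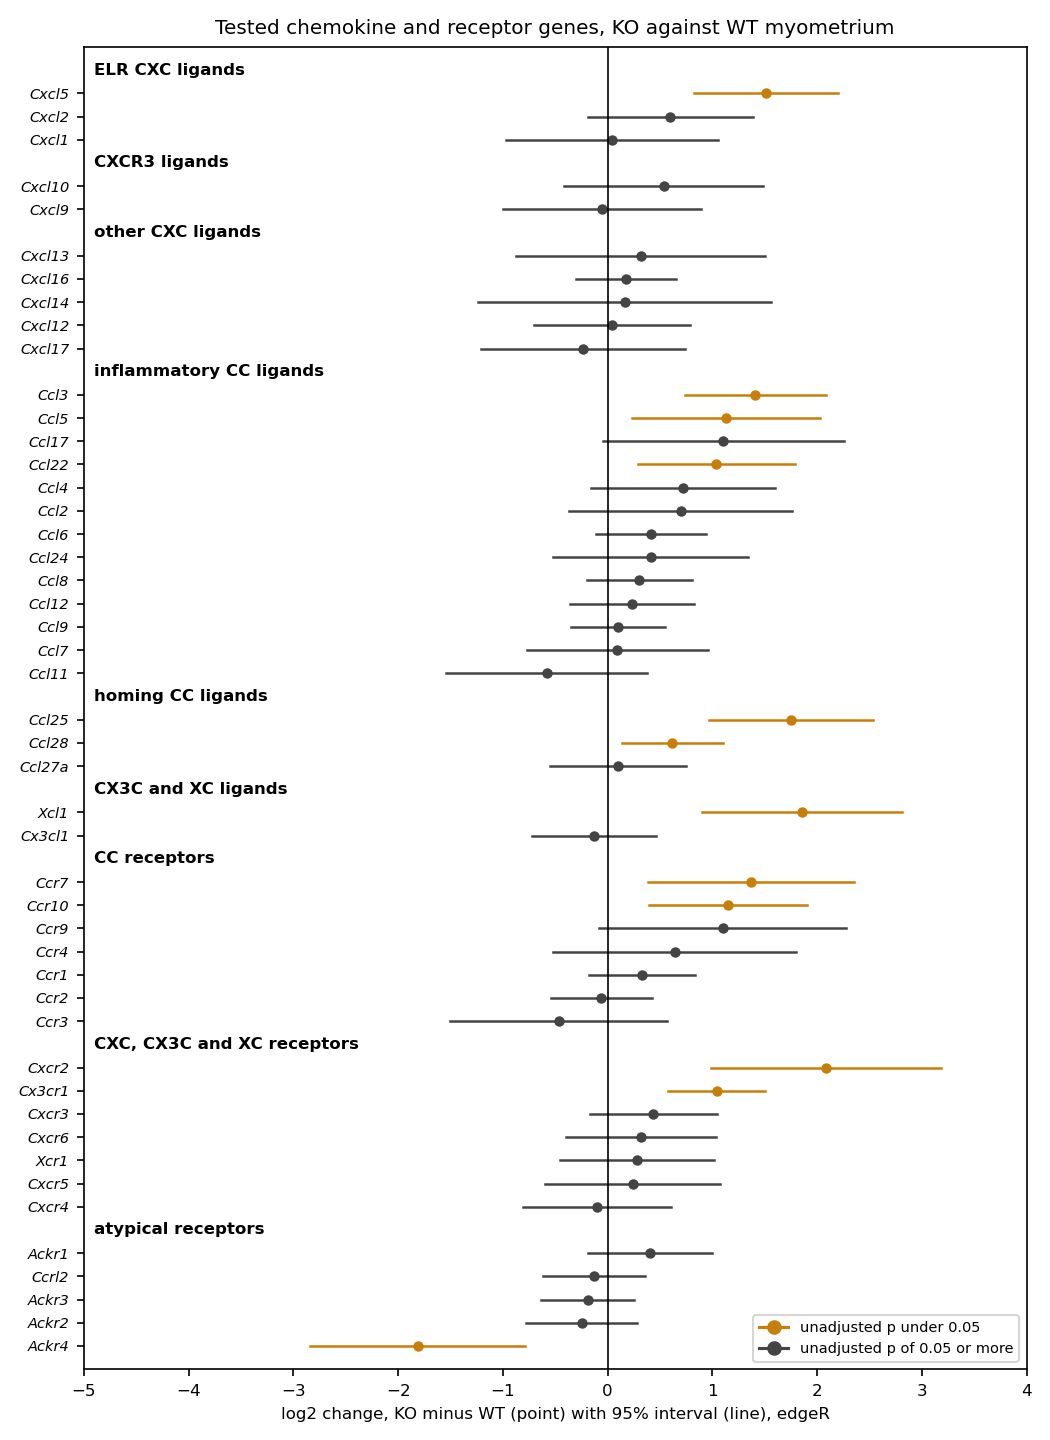
Log2 change (KO minus WT) of 47 tested genes on the horizontal axis, with its 95% interval from edgeR, grouped by role from top to bottom. Intervals of 11 genes lie wholly above 0 and that of Ackr4 wholly below it, and none of these passed after adjustment over all genes.

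Per length of exon, a few ligands made up most of the chemokine RNA in this tissue. Ccl6 and Ccl8, both CC chemokines, had mean levels of 190.0 and 182.6 CPM per kb in KO libraries, against 142.6 and 147.9 CPM per kb in WT libraries. Cxcl17, a mucosal chemokine, had 145.8 CPM per kb in KO libraries and 171.3 CPM per kb in WT libraries. Cxcl14, an epithelial and stromal chemokine, had 136.3 CPM per kb in KO libraries and 121.8 CPM per kb in WT libraries. The libraries of these 4 genes overlapped with one another in level, so their order is not fixed by these data. The atypical receptor Ackr3, which takes up Cxcl12, was next at 57.4 CPM per kb in KO libraries and 65.5 CPM per kb in WT libraries, followed by the CC ligand Ccl9 at 39.0 CPM per kb in KO libraries and 36.5 CPM per kb in WT libraries. The highest-ranked typical receptor was Ccr2, the receptor of inflammatory monocytes, at 5.38 CPM per kb in KO libraries and 5.60 CPM per kb in WT libraries.

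Summed over all 38 ligands, the level was 1216, 1283 and 1134 CPM in KO replicates 1, 2 and 3, against 1079, 1073 and 1031 CPM in WT replicates 1, 2 and 3. The 23 receptors summed to 329.95, 298.8 and 383.8 CPM in KO replicates, against 348.8, 406.0 and 318.2 CPM in WT replicates. The ligand sums did not overlap between genotypes and the receptor sums did. The ligand separation rested on Cxcl14 in KO replicate 2: without Cxcl14 the other ligands summed to 1099, 757.5 and 1029.8 CPM in KO replicates and 804.3, 885.3 and 825.4 CPM in WT replicates, and the groups overlapped. Of the 12 genes with an unadjusted p under 0.05 only Ccl28, Cx3cr1 and Ackr4 averaged over 5 CPM in WT.

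**Figure D2:**
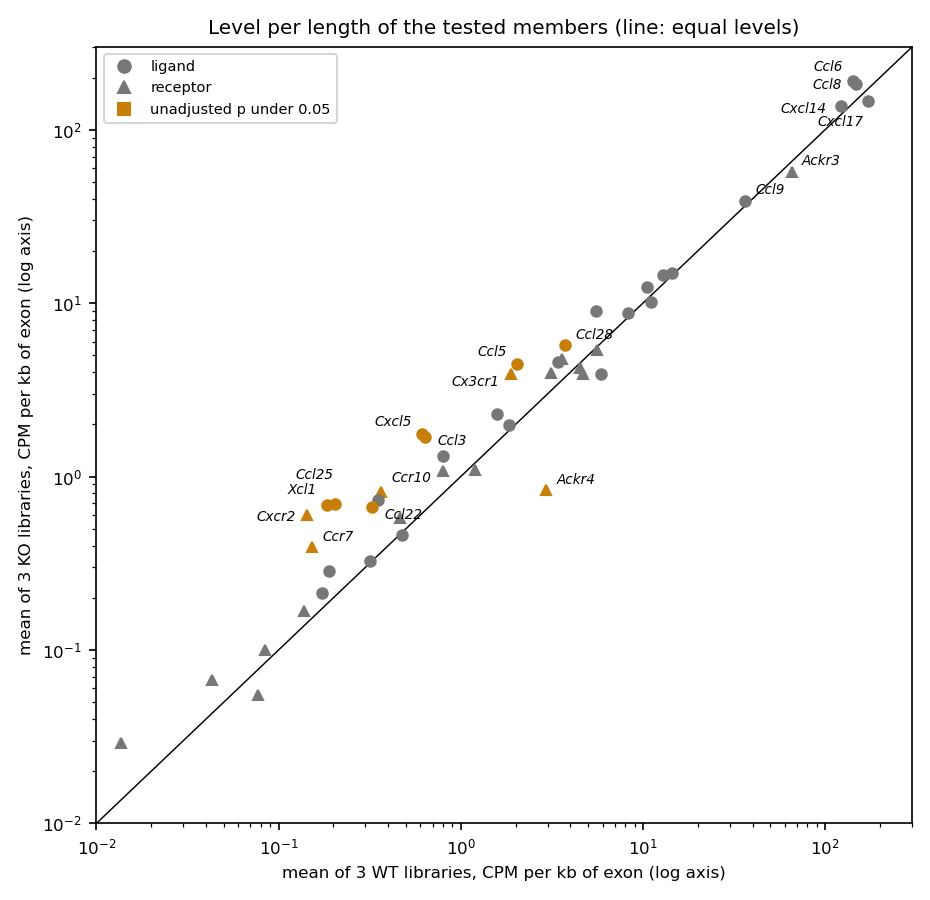
Mean level per kb of exon in KO libraries (vertical) against WT libraries (horizontal), both on log axes, for 47 tested genes (circles are ligands, triangles are receptors). The abundant genes Ccl6, Ccl8, Cxcl17, Cxcl14, Ackr3 and Ccl9 lie near the line of equal levels, and Ackr4 lies farthest below it.

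ELR CXC ligands attract neutrophils through the receptor Cxcr2. Those with a Cxcl symbol were scarce, and Cxcl5 was the one tested member of these whose groups did not overlap. The platelet chemokine Ppbp carries another symbol and was not counted among them. Ppbp averaged 4.10 CPM in KO and 6.15 CPM in WT, with overlapping groups and a negative change (log2 −0.59 ± 0.42). Cxcl5 (ENSMUSG00000029371, mm10 chromosome 5, 90759378 to 90761624, plus strand) had 3.23, 3.64 and 2.93 CPM in KO replicates 1, 2 and 3, against 0.986, 0.848 and 1.59 CPM in WT replicates 1, 2 and 3. The lowest KO library was above the highest WT library. The log2 change was 1.51 ± 0.29 (SE), a 2.86-fold difference, with an edgeR unadjusted p of 0.00109 and an adjusted p of 0.215. DESeq2 gave Cxcl5 an adjusted p of 0.00032. Cxcl1, an ELR ligand of the same cluster, had 0.979, 0.379 and 0.463 CPM in KO replicates, against 0.643, 0.424 and 0.714 CPM in WT replicates. Its groups overlapped, and its 95% interval ran from −0.97 to 1.06 on the log2 scale. Cxcl2, another gene of the group, had 0.777, 0.487 and 0.512 CPM in KO replicates and 0.493, 0.366 and 0.321 CPM in WT replicates, overlapping by a small margin (log2 0.60 ± 0.34, edgeR adjusted p = 0.726). Cxcl3 and Cxcl15 were not tested, with 19 and 5 counts in all 6 libraries together.

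Cxcl1, Cxcl2 and Cxcl3 lie in 1 cluster and are textbook targets of the transcription factor NF-kappaB. Their start regions are shown because they share 1 stretch of letters. The sequences run 5′ to 3′ from 130 bases before to 50 bases after the RefSeq start (build GRCm38.p6, plus strand, chr5:90891115-90891294 for Cxcl1, chr5:90903769-90903948 for Cxcl2 and chr5:90785971-90786150 for Cxcl3), and capitals mark letters that match the kappaB consensus.
Cxcl1: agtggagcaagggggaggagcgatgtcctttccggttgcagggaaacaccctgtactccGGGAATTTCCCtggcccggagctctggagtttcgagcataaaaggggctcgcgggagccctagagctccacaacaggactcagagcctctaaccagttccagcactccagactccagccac
Cxcl2: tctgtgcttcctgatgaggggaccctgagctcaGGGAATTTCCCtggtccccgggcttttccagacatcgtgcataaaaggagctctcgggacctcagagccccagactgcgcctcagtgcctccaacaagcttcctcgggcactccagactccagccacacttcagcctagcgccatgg
Cxcl3: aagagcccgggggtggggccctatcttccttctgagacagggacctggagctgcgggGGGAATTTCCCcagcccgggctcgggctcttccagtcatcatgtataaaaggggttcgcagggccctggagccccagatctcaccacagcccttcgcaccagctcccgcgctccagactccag

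The stretch in capitals reads as a match on both strands. Over RefSeq promoter windows of 250 bases before to 50 after a start, 46 of the 61 genes had an entry, with 55 windows. The kappaB consensus was found on either strand in 11 of these 55 (20%), against 4.51% of all 32851 windows. The letters CANNTG, the E-box that many basic helix-loop-helix proteins bind and that reads the same on both strands, were in 43 of 55 (78.2%), against 72.3% of all windows. TTCNNNGAA, also the same on both strands and bound by STAT factors, was in 3 of 55 (5.45%), against 8.30%. Of the 12 genes with an unadjusted p under 0.05, 8 had an entry and none of these 8 held the kappaB letters. Cxcl5, Ccl5, Ccr7 and Ccr10 had no entry. With a background of 4.51%, 8 genes are too few to tell a lack of these letters from the background. The 11 genes that did were Ackr2, Ccl20, Ccl27a, Ccl9, Ccr3, Ccr6, Ccrl2, Cxcl1, Cxcl10, Cxcl2 and Cxcl3.

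Cxcr2, the receptor for the ELR ligands and a hallmark of neutrophils, was the receptor with the largest fold difference. Cxcr2 (ENSMUSG00000026180, mm10 chromosome 1, 74153989 to 74161246, plus strand) had 177, 75 and 58 counts in KO replicates 1, 2 and 3, against 22, 32 and 12 counts in WT replicates 1, 2 and 3. Scaled by library size these were 2.75, 1.35 and 1.41 CPM in KO and 0.472, 0.617 and 0.214 CPM in WT, and the groups did not overlap. The log2 change was 2.09 ± 0.47 (edgeR adjusted p = 0.283, DESeq2 adjusted p = 0.00212). Without KO replicate 1 it was 1.68. Its close relative Cxcr1, which also serves neutrophils, had 6, 2 and 0 counts in KO and 1, 0 and 5 in WT and was not tested. Of 12 neutrophil markers none was at 0 in all libraries and 7 were tested. Of those, 6 had positive fold changes (background 52.1%), 4 of them at an unadjusted edgeR p under 0.05 (background 5.27%). The markers summed to 1056 to 1758 CPM in KO and 642.4 to 1566 CPM in WT, of which Ltf, which uterine epithelium also makes, supplied 97.8%, and without Ltf to 29.5 to 41.4 CPM in KO and 15.1 to 23.3 CPM in WT. Their part in the Cxcr2 and Cxcl5 values was not tested.

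**Figure D3:**
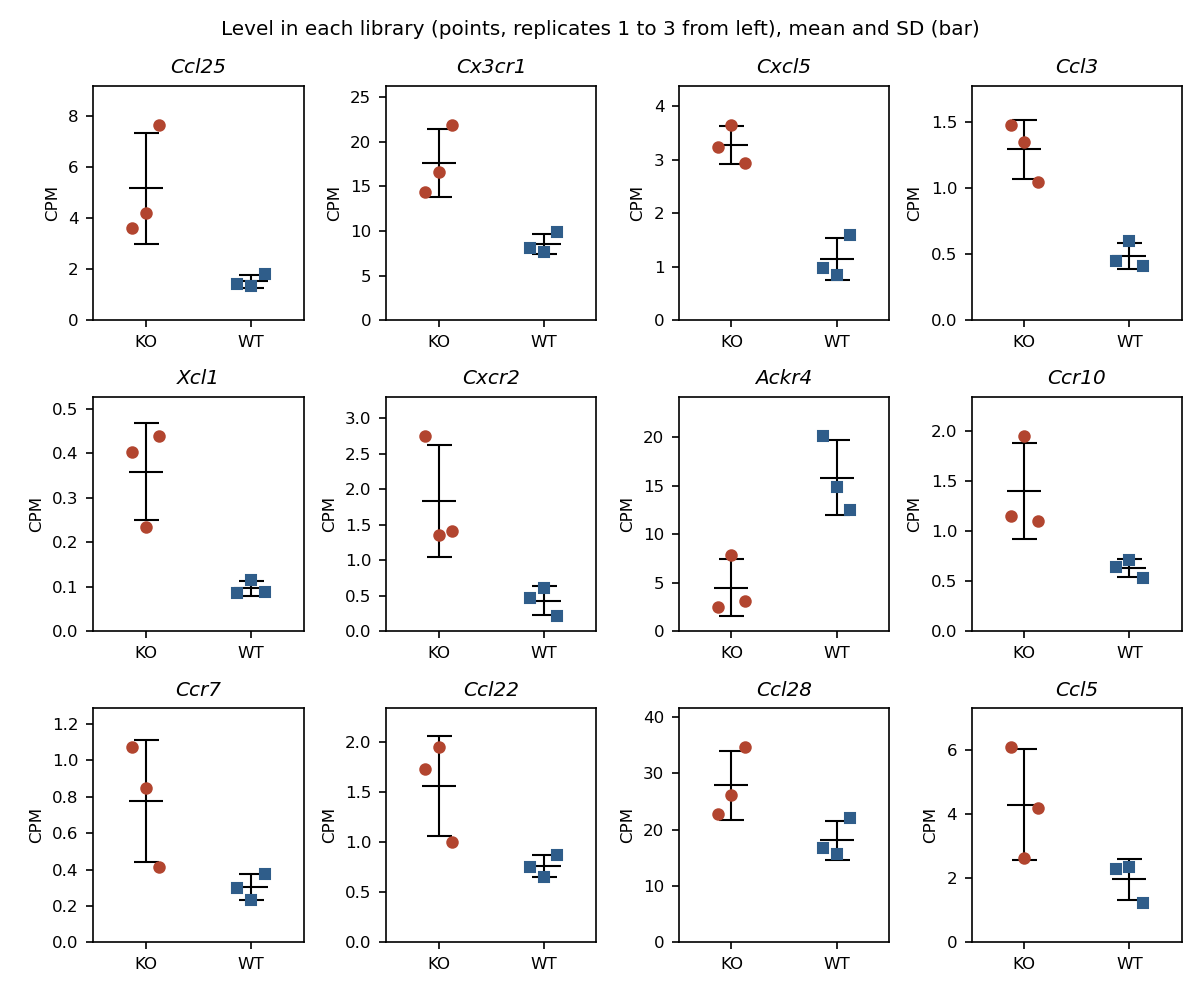
CPM (vertical axis, from 0) in each KO library (circles, left) and each WT library (squares, right) for the 12 genes with an unadjusted p under 0.05, with the mean and SD as bars. For all 12 genes shown the KO and WT points do not overlap, and Ackr4 is the one with KO below WT.

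Groups that did not overlap were more frequent in one direction. Of the 48 tested genes, 13 had all KO libraries above all WT libraries, which is 27.1% against a background of 7.22% of tested genes, and 1 had all KO libraries below, against a background of 7.01%. Besides the 11 genes named above, the 13 included Ccr9 and Cxcr3. The library in which a gene was highest was KO replicate 1 for 17 of the 48, KO replicate 2 for 10 and KO replicate 3 for 10. It was WT replicate 1 for 4, WT replicate 2 for 5 and WT replicate 3 for 2. Among all tested genes the shares were 23.3%, 22.2% and 21.3% for KO replicates 1, 2 and 3, and 10.9%, 9.26% and 13.1% for WT replicates 1, 2 and 3.

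Among the inflammatory CC ligands, which draw monocytes, T cells, eosinophils and dendritic cells, 12 of 13 tested genes had positive fold changes (background 52.1%). At an unadjusted edgeR p under 0.05, 3 were higher (background 5.27%). Ccl3, a ligand of Ccr1 (ENSMUSG00000000982, mm10 chromosome 11, 83647844 to 83649355, minus strand), had 1.48, 1.35 and 1.05 CPM in KO replicates, against 0.450, 0.597 and 0.410 CPM in WT replicates. All KO libraries were above all WT libraries (log2 1.41 ± 0.29, edgeR adjusted p = 0.236, DESeq2 adjusted p = 0.00969). Its paired neighbour Ccl4, also an attractant of monocytes and T cells, had 1.10, 0.631 and 0.878 CPM in KO and 0.750, 0.482 and 0.357 CPM in WT, with overlapping groups (log2 0.72 ± 0.38). The edgeR unadjusted p of Ccl4 was 0.0491 without KO replicate 2 and 0.0398 without WT replicate 1, and under 0.05 in no other setting. Ccl5, made by activated T and natural killer cells, had 6.08, 2.61 and 4.17 CPM in KO and 2.29, 2.35 and 1.23 CPM in WT. These did not overlap (log2 1.13 ± 0.38, edgeR adjusted p = 0.454). The unadjusted p of Ccl5 was 0.077 without KO replicate 1 and 0.0601 without WT replicate 3. Ccl22, a dendritic cell and macrophage ligand of Ccr4, had 1.73, 1.95 and 1.00 CPM in KO and 0.750, 0.655 and 0.874 CPM in WT (log2 1.04 ± 0.32, edgeR adjusted p = 0.406), and without WT replicate 2 its unadjusted p was 0.0534. Ccl17, the other Ccr4 ligand and a close neighbour of Ccl22 on chromosome 8, had only 29, 27 and 8 counts in KO and 13, 7 and 7 in WT, with overlapping groups (log2 1.10 ± 0.49, edgeR unadjusted p = 0.058). Its unadjusted p was 0.0445 with the replicate number as a block, 0.0196 without KO replicate 3 and 0.0300 without WT replicate 1. It was under 0.05 in no other setting.

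The abundant CC ligands overlapped between genotypes. Ccl6 had 372.9, 265.9 and 384.2 CPM in KO replicates and 243.4, 321.2 and 203.4 CPM in WT replicates, overlapping (log2 0.41 ± 0.23, 95% interval −0.11 to 0.94). Its edgeR unadjusted p was 0.0315 without KO replicate 2 and 0.0396 without WT replicate 2, and under 0.05 in no other setting. Ccl8 had 118.5, 75.1 and 86.3 CPM in KO and 72.8, 91.3 and 62.6 CPM in WT, also overlapping. Ccl9, on which the interval was the tightest of the 3, had a log2 change of 0.10 with a 95% interval of −0.35 to 0.54.

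The monocyte-attracting gene Ccl2 was high in 1 KO library. It had 18.3, 6.78 and 5.56 CPM in KO replicates 1, 2 and 3, against 5.29, 8.19 and 5.44 CPM in WT replicates 1, 2 and 3. KO replicates 2 and 3 lay inside the WT range. The log2 change of 0.70 ± 0.46 became −0.02 without KO replicate 1. Cxcl10, an interferon-induced ligand of Cxcr3, followed the same order, with 8.64, 4.07 and 2.80 CPM in KO and 3.92, 2.97 and 3.85 CPM in WT. Its log2 change of 0.53 became −0.05 without KO replicate 1. Without KO replicate 3 the log2 change of Cxcl10 was 0.83, at an edgeR unadjusted p under 0.05. Cxcl9, the other tested Cxcr3 ligand, had 2.11, 1.35 and 0.683 CPM in KO and 1.24, 1.41 and 1.68 CPM in WT, and Cxcl11 had 18 counts in all and was not tested. Counts of Cxcl10 are uncertain in part, since its exons share 133 bases with those of Art3 on the other strand, which had 9114 counts in all against 1450 for Cxcl10. The values of KO replicate 1 stand beside its placental marker sum given above. Erythroid markers (6 genes, none at 0 in all libraries) summed to 281.8, 74.9 and 102.5 CPM in KO replicates 1, 2 and 3. In WT libraries the erythroid sums were 51.0 to 106.3 CPM. The part of placenta or blood in the values of KO replicate 1 was not tested.

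The eosinophil-attracting ligands Ccl11 and Ccl24 had log2 changes of opposite sign, and neither separated the genotypes. Ccl11, or eotaxin, had 6.89, 3.82 and 2.02 CPM in KO and 7.65, 5.80 and 5.69 CPM in WT, with overlapping groups (log2 −0.58 ± 0.41). Without KO replicate 1 its log2 change was −1.11 (edgeR unadjusted p = 0.0147), and with the replicate number as a block it was −0.73 (unadjusted p = 0.0468). Ccl24, eotaxin-2, had 9.33, 3.28 and 5.07 CPM in KO and 3.13, 5.22 and 4.96 CPM in WT. Their receptor Ccr3 had 12, 13 and 5 counts in KO and 7, 13 and 20 in WT. Of 5 eosinophil markers none was at 0 in all libraries, and their sums were 12.4 to 29.3 CPM in KO and 11.3 to 15.5 CPM in WT, with Il5ra supplying 94.0%. Without Il5ra the sums were low, at 0.805 to 1.88 CPM in KO and 0.462 to 0.772 CPM in WT, and did not overlap. All 3 tested markers had positive fold changes (background 52.1%), and 1, Prg2, had an unadjusted edgeR p under 0.05 (background 5.27%).

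The homing CC ligands guide lymphocytes into mucosa, skin and lymphoid tissue, and all 3 tested genes had positive fold changes (background 52.1%). Ccl25, known for drawing Ccr9-bearing T cells to the thymus and small intestine (ENSMUSG00000023235, mm10 chromosome 8, 4325233 to 4360020, plus strand), had 3.64, 4.22 and 7.66 CPM in KO replicates, against 1.41, 1.33 and 1.84 CPM in WT replicates. Each KO library was above each WT library, and KO replicate 3 was the highest. The log2 change was 1.75 ± 0.33, a 3.37-fold difference (edgeR unadjusted p = 0.000984, adjusted p = 0.215, DESeq2 adjusted p = 0.000125). The annotated 5′ end of Ccl25 shares 204 exon bases with Elavl1 on the other strand. Elavl1 overlapped between genotypes (65.3, 56.8 and 62.0 CPM in KO, 58.9, 58.2 and 62.4 CPM in WT), although it had 19162 counts in all against 1020 for Ccl25. The Ccl25 receptor gene Ccr9 had 16, 21 and 11 counts in KO and 10, 8 and 3 counts in WT (log2 1.10 ± 0.51, edgeR unadjusted p = 0.0639). By limma-voom, and by edgeR without WT replicate 1, its unadjusted p was under 0.05. There are 6 annotated genes that overlap Ccr9, 3 of which share exon bases with it.

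Ccl28, an epithelial chemokine that attracts antibody-secreting cells through Ccr10, was the most abundant homing ligand in summed CPM. It had 22.7, 26.1 and 34.6 CPM in KO replicates, against 16.7, 15.6 and 22.0 CPM in WT replicates, a narrow separation (log2 0.62 ± 0.20, edgeR adjusted p = 0.431). Its unadjusted p, 0.018 with all libraries, was 0.058 without KO replicate 3, 0.0636 without WT replicate 1 and 0.0693 without WT replicate 2. Replicate 3 was the highest of its genotype for Ccl28 and for the epithelial marker sum given with Cxcl17. KO replicate 2 was the lowest library for that sum but not for Ccl28. The part of epithelium in the Ccl28 values was not tested. The Ccl28 receptor gene Ccr10 had 1.15, 1.95 and 1.10 CPM in KO and 0.643, 0.713 and 0.535 CPM in WT, also separated (log2 1.15 ± 0.32, edgeR unadjusted p = 0.00815, adjusted p = 0.354). KO replicate 2 was the highest for Ccr10, and it was also the highest for B and plasma cell markers. Those 9 markers, none at 0 in all libraries, summed to 664.9 to 1641 CPM in KO and 97.9 to 370.4 CPM in WT, 54.4% of it Igha, and their part in the Ccr10 values was not tested. Ccl27a, the skin ligand of Ccr10, overlapped between genotypes (log2 0.10 ± 0.28), but 45.0% of its 50-base transcript windows also occur in transcripts of other genes, so its counts are uncertain.

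Ccl21a, which lymphatic vessels and lymph nodes use to draw Ccr7-bearing dendritic and T cells, was high in 2 of 3 KO libraries. It had 5, 39 and 72 counts in KO replicates 1, 2 and 3 and 6, 5 and 5 counts in WT replicates 1, 2 and 3. KO replicate 1 was at the WT level, so the groups overlapped in CPM (0.0777, 0.703 and 1.76 in KO, 0.129, 0.0964 and 0.0892 in WT). edgeR's count filter left the gene out, and DESeq2 gave it an adjusted p of 0.0473. Near-identical copies make it uncertain: 71.6% of its 50-base transcript windows occur in other genes' transcripts. Lymphatic endothelial markers (4 genes, none at 0 in all libraries) summed to 401.6 to 529.6 CPM in KO and 340.3 to 584.2 CPM in WT. Ccl19, the other Ccr7 ligand, had 1 count in all 6 libraries, and 52.0% of its 50-base transcript windows occur in other genes' transcripts.

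The receptor gene Ccr7 itself had 69, 47 and 17 counts in KO replicates and 14, 12 and 21 counts in WT replicates. As CPM these were 1.07, 0.847 and 0.415 in KO against 0.300, 0.231 and 0.375 in WT, so KO replicate 3 was only just above the highest WT library (log2 1.37 ± 0.42, edgeR adjusted p = 0.395). Without WT replicate 2 its unadjusted p was 0.0517. Of 7 dendritic cell markers, all tested, 7 had positive fold changes (background 52.1%) and 2 an unadjusted p under 0.05 (background 5.27%). They summed to 126.0 to 212.8 CPM in KO and 116.5 to 137.3 CPM in WT, 84.2% of it H2-Ab1. Without H2-Ab1 they summed to 23.8 to 28.4 CPM in KO and 19.1 to 19.7 CPM in WT, without overlap. Their part in the Ccr7 and Ccl22 values was not tested.

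Ackr4, the scavenger receptor that clears Ccl19, Ccl21 and Ccl25 from tissue, was the only gene of the 48 lower in every KO library than in any WT library. Ackr4 (ENSMUSG00000079355, mm10 chromosome 9, 104098148 to 104126933, minus strand) had 160, 436 and 129 counts in KO replicates 1, 2 and 3, against 938, 770 and 702 counts in WT replicates 1, 2 and 3. The levels were 2.49, 7.86 and 3.15 CPM in KO and 20.1, 14.8 and 12.5 CPM in WT. KO replicate 2 lay closest to WT but stayed below it. The log2 change was −1.81 ± 0.44, which is 3.51-fold lower in KO, with an edgeR unadjusted p of 0.00391, an adjusted p of 0.304 and a DESeq2 adjusted p of 0.00188. With each library left out in turn the log2 change stayed between −2.49 (without KO replicate 2) and −1.51 (without KO replicate 1). Ackr4 shares 479 exon bases with Acad11 on the other strand, which had 18.0, 21.3 and 19.7 CPM in KO and 23.0, 19.0 and 22.1 CPM in WT, with overlapping groups. Some marker lists also had negative fold changes. Of 7 mast cell markers all 7 were negative (background 52.1% positive), 3 at an unadjusted p under 0.05 (background 3.29%). The mast cell sums were 43.7 to 102.9 CPM in KO and 94.4 to 171.8 CPM in WT. Of 5 mesothelial markers 4 were negative, 3 at an unadjusted p under 0.05 (background 3.29%). The mesothelial sums were 210.8 to 898.8 CPM in KO and 387.7 to 767.8 CPM in WT, of which Krt19 supplied 79.8%. Without Krt19 the mesothelial sums were 65.4 to 95.9 CPM in KO and 131.1 to 216.5 CPM in WT, and did not overlap. The part of mast cells and mesothelium in the Ackr4 values was not tested.

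The other atypical receptors overlapped between genotypes. Ackr3 had 201.5, 149.7 and 225.4 CPM in KO and 209.1, 249.9 and 198.5 CPM in WT (log2 −0.19, 95% interval −0.63 to 0.25). Ackr2, the scavenger of inflammatory CC chemokines, had 12.9, 13.4 and 10.6 CPM in KO and 16.5, 17.2 and 10.04 CPM in WT (log2 −0.25, interval −0.78 to 0.29), and without WT replicate 3 its log2 change was −0.46 (edgeR unadjusted p = 0.039). Ccrl2, which presents the attractant chemerin rather than a chemokine, had a log2 change of −0.13 ± 0.21. Ackr1, the Duffy receptor of venules and red cells, had 7.41, 5.17 and 7.44 CPM in KO and 4.52, 6.51 and 4.09 CPM in WT. Its counts are uncertain because 20.4% of its 50-base transcript windows also belong to Cadm3 on the same strand.

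Cx3cr1, the fractalkine receptor of monocytes, resident macrophages and cytotoxic lymphocytes, was higher in every KO library than in any WT library. It had 14.4, 16.6 and 21.9 CPM in KO replicates 1, 2 and 3, against 8.10, 7.69 and 9.85 CPM in WT replicates 1, 2 and 3. The lowest KO library was well above the highest WT library, and the log2 change was 1.04 ± 0.20, a 2.06-fold difference (edgeR unadjusted p = 0.000989, adjusted p = 0.215, DESeq2 adjusted p = 0.00135). With each library left out in turn it stayed between 0.86 and 1.18. Its only ligand, Cx3cl1, overlapped, at 34.7, 30.0 and 54.7 CPM in KO and 41.0, 36.0 and 53.4 CPM in WT (log2 −0.13, 95% interval −0.72 to 0.46).

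The position of Cx3cr1 was checked for reads that could belong elsewhere. Its annotated span meets 9 other genes, of which 6 are transcribed from the opposite strand, and their counts together came to 549% of those of Cx3cr1. Cx3cr1 (ENSMUSG00000052336, mm10 chromosome 9, 119901616 to 120069879, minus strand) spans 168.3 kb in the table, but its GENCODE M21 exons cover only 4505 bases in 4 blocks. The far end of the span is a single block of 12 bases, and 1 of the 3 annotated transcripts reaches over 100 kb. Wdr48 (11455 counts), Gorasp1 (6006 counts) and Csrnp1 (4585 counts) overlap the long intron and share 0 exon bases with Cx3cr1. The 1 gene that shares exon bases, 78 of them, is Gm33858 on the other strand, with 13 counts in all against 4072 for Cx3cr1, or 0.319%. Wdr48 averaged 34.7 ± 5.05 CPM in KO and 38.5 ± 2.30 CPM in WT (SD, n = 3 each), and Csrnp1 15.4 ± 4.68 CPM in KO and 13.1 ± 0.893 CPM in WT. Gorasp1 averaged 20.1 ± 1.12 CPM in KO and 18.0 ± 1.16 CPM in WT. The log2 changes of Wdr48, Gorasp1 and Csrnp1 were −0.15, 0.16 and 0.24, against 1.04 for Cx3cr1, whose means were 17.6 ± 3.84 CPM in KO and 8.55 ± 1.15 CPM in WT.

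**Figure D4:**
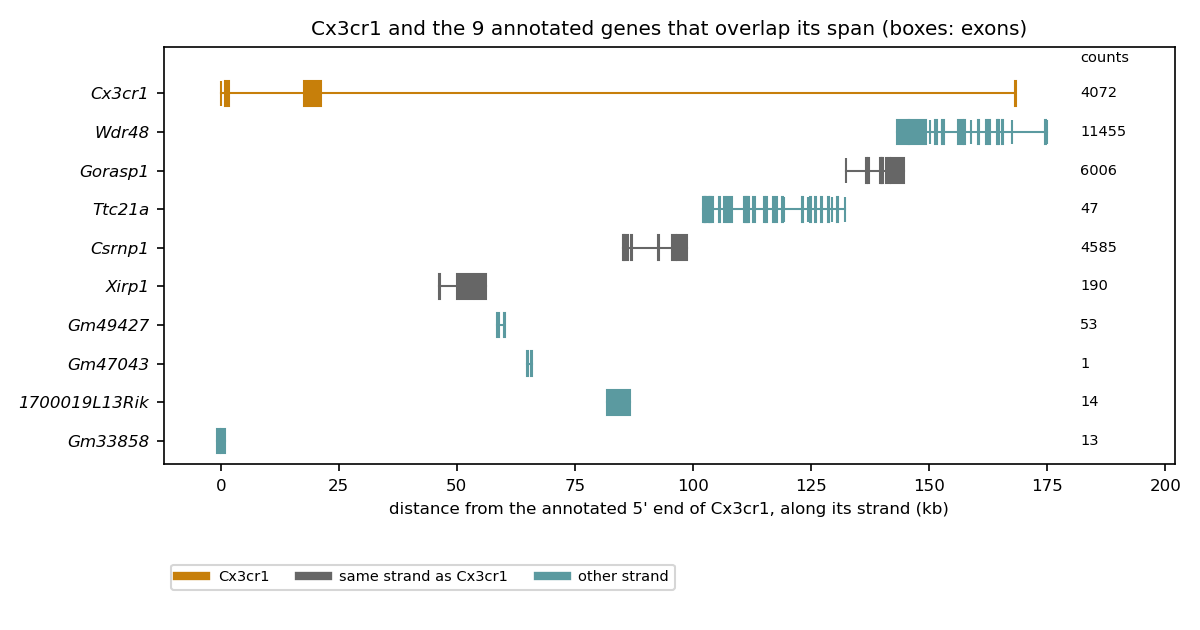
Map of Cx3cr1 and the 9 genes that overlap its annotated span, drawn to scale in kb from its 5′ end, with exons as boxes and counts summed over the 6 libraries at the right. The exons of Cx3cr1 sit within the first 21.2 kb and in a 12-base block at the far end, and of the 9 genes Gm33858, with 13 counts, is the one whose exon meets an exon of Cx3cr1.

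Ccr2 and Ccr1, other receptors of monocytes and macrophages, overlapped between genotypes. Ccr2 had 30.5, 35.0 and 43.6 CPM in KO and 35.3, 47.8 and 30.5 CPM in WT (log2 −0.06, 95% interval −0.54 to 0.42). Ccr1 had 8.97, 10.2 and 14.3 CPM in KO and 9.22, 9.89 and 7.55 CPM in WT (log2 0.33 ± 0.22). Of 10 macrophage and monocyte markers, none at 0 in all libraries, 6 had positive fold changes (background 52.1%). Of these 1, Ly6c2, had an unadjusted edgeR p under 0.05 (background 5.27%). Their sums were 1230 to 1456 CPM in KO and 1067 to 1440 CPM in WT. Natural killer and T cell markers, given with Xcl1, had sums that did not overlap (16.5 to 24.2 CPM in KO and 8.79 to 9.86 CPM in WT). The part of either kind of cell in the Cx3cr1 values was not tested.

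Genes of natural killer and T cells included the scarce ligand Xcl1. Xcl1, which attracts cross-presenting dendritic cells through Xcr1 (ENSMUSG00000026573, mm10 chromosome 1, 164931644 to 164935527, minus strand), had 26, 13 and 18 counts in KO replicates and 4, 6 and 5 counts in WT replicates. Every KO count was above every WT count (log2 1.86 ± 0.41, edgeR unadjusted p = 0.00231, adjusted p = 0.27), and DESeq2 did not call it (adjusted p = 0.139). Xcl1 shares 98 exon bases with Gm20743 on the other strand, which had 22 counts in all against 72 for Xcl1. Its receptor Xcr1 had 51, 32 and 36 counts in KO and 26, 41 and 28 counts in WT, overlapping once scaled. The T cell receptors Cxcr3 and Cxcr6 had log2 changes of 0.43 ± 0.26 and 0.32 ± 0.31. Cxcr3 levels were 1.82, 1.95 and 1.80 CPM in KO against 1.56, 1.56 and 0.999 CPM in WT, separated by a small step. All 11 natural killer and T cell markers, none at 0 in all libraries, were tested. All 11 had positive fold changes (background 52.1%), and 9 had an unadjusted p under 0.05 (background 5.27%). They summed to 16.5 to 24.2 CPM in KO and 8.79 to 9.86 CPM in WT, and their part in the Xcl1, Ccl5 and Cxcr3 values was not tested.

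The stromal ligands Cxcl12 and Cxcl14 varied more among KO libraries than between genotypes. Cxcl12, which retains Cxcr4-bearing cells in tissue, had 190.3, 93.7 and 80.5 CPM in KO replicates 1, 2 and 3, against 128.3, 123.5 and 102.0 CPM in WT replicates 1, 2 and 3. KO replicate 1 was above and the other two were below every WT library, so that the log2 change of 0.04 ± 0.32 became −0.43 without KO replicate 1 (edgeR unadjusted p = 0.0276). Cxcl14 had 117.2, 525.4 and 104.4 CPM in KO and 274.3, 187.8 and 205.5 CPM in WT, with KO replicate 2 the highest and the other KO libraries the lowest. Its log2 change of 0.16 ± 0.60 became −1.001 without KO replicate 2 (edgeR unadjusted p = 0.00195). Fibroblast markers (6 genes, none at 0 in all libraries) summed to 19339 to 23485 CPM in KO and 17446 to 28964 CPM in WT. Of the 6, 4 had negative fold changes (background 52.1% positive). Lum (log2 −0.63 ± 0.18, edgeR unadjusted p = 0.0101) and Dcn (−0.42 ± 0.20) were lower in every KO library. Cxcr4, the receptor for Cxcl12, had 6.40, 9.09 and 7.41 CPM in KO and 10.1, 4.80 and 9.62 CPM in WT (log2 −0.10 ± 0.30). Cxcl16, a membrane-bound ligand of Cxcr6, overlapped between genotypes, at 51.4, 31.0 and 48.7 CPM in KO and 40.4, 41.4 and 34.4 CPM in WT. Without KO replicate 2 the log2 change of Cxcl16 was 0.37, at an edgeR unadjusted p under 0.05.

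Cxcl17 varied widely within each genotype, as did epithelial markers. It had 83.0, 86.1 and 163.7 CPM in KO replicates 1, 2 and 3 and 116.1, 70.6 and 204.4 CPM in WT replicates 1, 2 and 3. The 6 epithelial markers, none at 0 in all libraries, summed to 1807, 595.1 and 3026 CPM in KO and 1580, 1033 and 2280 CPM in WT. Replicate 3 was the highest of its genotype for both, and the part of epithelium in the Cxcl17 values was not tested.

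Genes that lie next to each other did not share one difference. Of the 61 genes, 40 fall in 10 clusters in which neighbours are at most 500000 bases apart. In the cluster of chromosome 11 from 83525778 to 83664683 (Ccl5, Ccl9, Ccl6, Ccl3 and Ccl4), all 5 log2 changes were positive, from 0.10 for Ccl9 to 1.41 for Ccl3. In the cluster from 82035571 to 82179812 on the same chromosome (Ccl2, Ccl7, Ccl11, Ccl12, Ccl8 and Ccl1), they ran from −0.58 for Ccl11 to 0.70 for Ccl2, and none of the 5 tested had an unadjusted p under 0.05. In the ELR cluster of chromosome 5, from 90759378 to 90905938, the log2 changes of the 3 tested genes of the 61 ran from 0.05 for Cxcl1 to 1.51 for Cxcl5. Pf4 and Ppbp, which are not among the 61, were not placed in clusters.

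Among the 13 genes left out of the edgeR test, most were at the limit of detection. Ccl21b and Ccl26 had 0 counts in every library. Apart from Ccl21a, the rest had 1 to 23 counts in all 6 libraries together. Ccl1, a ligand of Ccr8, had 4, 1 and 2 counts in KO and 0 in each WT library, and Ccl20, the ligand of Ccr6, had 3, 7 and 7 counts in KO and 3, 3 and 0 in WT. Without the count filter Ccl1 and Ccl21a had an unadjusted edgeR p under 0.05 and were not called after adjustment. For the others no difference was detectable from these counts. Shared sequence also makes some of the counts uncertain. Of the 50-base transcript windows, 100% for Ccl21b, 98.1% for Ccl27b and 52.0% for Ccl19 also occur in transcripts of other genes.

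Downstream of the receptors, a list of 35 chemokine signalling genes (G protein subunits, kinases, arrestins and regulators) had 26 positive and 9 negative fold changes (background 52.1% positive), a median log2 change of 0.15, and 0 calls over all genes. At an unadjusted edgeR p under 0.05, 4 were higher (background 5.27%) and 1 was lower (background 3.29%). The lower one was Rgs1, which switches off the G proteins that chemokine receptors activate. It had 43.2, 27.1 and 20.8 CPM in KO replicates, against 129.6, 99.2 and 139.5 CPM in WT replicates. All KO libraries were far below all WT libraries (log2 −2.01 ± 0.28, edgeR adjusted p = 0.113, DESeq2 adjusted p = 1.24e-08). Among the higher ones were Fgr, a Src-family kinase of myeloid cells, with a log2 change of 0.96 ± 0.27 (edgeR adjusted p = 0.346), and Rac2, a GTPase of white blood cells that moves the cytoskeleton, with 0.54 ± 0.18 (edgeR adjusted p = 0.423). Both were separated between genotypes.

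Upstream, a list of 19 genes that induce chemokines (NF-kappaB and STAT factors, cytokines and their receptors) had 18 tested members. Of these, 14 had positive and 4 negative fold changes (background 52.1% positive), with a median log2 change of 0.08. At an unadjusted p under 0.05, 2 were higher (background 5.27%), both interleukin-1 genes. Il1b had 2.66, 1.51 and 1.85 CPM in KO and 1.11, 1.00 and 0.571 CPM in WT, without overlap (log2 1.17 ± 0.35, edgeR adjusted p = 0.383). Il1a had 10.5, 8.33 and 21.1 CPM in KO and 7.09, 3.35 and 8.74 CPM in WT, with overlap. The interferon-induced factor gene Irf1 and the NF-kappaB subunit gene Nfkb2 had log2 changes of 0.32 ± 0.14 and 0.21 ± 0.13. The platelet chemokines had negative fold changes: Pf4 had 39.9, 28.2 and 36.1 CPM in KO and 28.2, 51.4 and 39.8 CPM in WT, and Ppbp 5.16, 2.45 and 4.68 CPM in KO and 3.11, 8.23 and 7.10 CPM in WT, both with overlapping groups.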

How the data were processed

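RNA of 3 KO and 3 WT mouse myometria was poly(A)-selected and made into libraries with a directional kit, per the labels' protocols. The authors deposited raw counts by Ensembl identifier, 1 file a library, and a joint table of normalized values, a signal equal to the count times 1 constant per library (0.804 to 1.26). Tools named in the submitters' processing notes, without role or order, are HISAT2 2.2.1, HTSeq 0.9.1, FastQC 0.73 and DESeq2 2.11.40.7, and the build is mm10. The strand setting of the counting and the annotation release are not stated there, so reads of genes that overlap on opposite strands cannot be told apart. Gene positions come from the deposited normalized table, whose starts count from 0 and are printed from 1.

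Deposited counts were tested with edgeR 4.0.16 (R 4.3.3): filterByExpr, TMM, quasi-likelihood fit on genotype, Benjamini-Hochberg adjustment over 19599 genes, adjusted p under 0.05. A ± after a log2 change is its standard error. CPM use TMM-scaled library sizes. Exon lengths, exon overlaps and shared 50-base transcript windows come from GENCODE M21, which holds 54804 of 55055 identifiers. Promoters are RefSeq GRCm38.p6. The fit was tested on simulated data. Named are genes with an unadjusted p under 0.05, the 3 most abundant per role, a panel, Pf4, Ppbp, genes overlapping Cx3cr1, up to 4 genes per pathway list with the smallest p, and others needed to complete a count, chosen after their values were seen. The genes, lists and panel were chosen with earlier results of these data known, and motifs after values were seen.

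No library was a duplicate: counts of replicates gave a chi-square of 32.5 to 208.7 per degree of freedom. Deviations from the group mean correlated at 0.147, 0.196 and 0.217 for KO and WT libraries with the same replicate number in the titles. For pairs with different numbers the correlations ran from −0.223 to 0.0611. Such deviations balance out within a genotype, so some pairs had to be positive, and the values cannot establish a pairing. This correlation, and not a stated link, is the ground for trying a paired fit. Other settings tried were upper-quartile and RLE scaling, no filter, a CPM of at least 1 in 3 libraries, DESeq2 1.42.0, limma-voom and limma 3.58.1 on log2 of the normalized values plus 1, a robust fit, a replicate block, and leaving out each library. Some genes that the naming rule selects are not reported here, though counts over all genes include them.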

Additional observations from a re-analysis of the deposited data

How the results depend on the processing

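Depth limits the scarce genes: 26 of the 61 genes averaged under 1 CPM. Over the 15 alternatives, 516 of 550 log2 changes of 37 named tested genes kept their direction and their side of the adjusted threshold, 7 kept the direction and newly passed, and 27 reversed. Ackr4, Ccl25, Ccl3, Ccr10, Cx3cr1, Cxcl5 and Cxcr2 had an unadjusted p under 0.05 in all 16 settings. Calls among the 48 genes were 0 higher and 0 lower except without a count filter (1 higher, Ccl25) and in DESeq2 (5 higher, 1 lower; with Ccl21a, which edgeR did not test, 6 higher). Over all genes, 0 were called higher and 4 lower in the main setting, 4 and 8 with upper-quartile scaling, 47 and 34 without a filter, and 245 and 135 in DESeq2; with the replicate block 2 were higher. Leaving out 1 library gave 0 to 3 higher and 1 to 4 lower. Genes lower at an unadjusted p under 0.05 were 1 to 3 with 1 library left out and 2 with the replicate block, which added Ccl11 below and Ccl17 above; the block changed no adjusted call among the 48. Higher ones were 9 to 14 in every setting. By limma-voom, limma on normalized values and the replicate block, log2 changes were −0.0272, −0.0593 and −0.0358 for Cxcl1, −0.0727, −0.0614 and −0.059 for Cxcl12, and −0.25, −0.24 and −0.29 for Cxcl14. With 1 library left out, ranges were −0.0243 to 0.99 for Ccl2, −0.12 to 0.34 for Ccl27a, −0.21 to 0.14 for Ccr2, −0.43 to 0.0435 for Cx3cl1, −0.49 to 0.30 for Cxcl1, −0.0491 to 0.83 for Cxcl10, −0.43 to 0.27 for Cxcl12, −1.001 to 0.53 for Cxcl14, −0.63 to 0.25 for Cxcl17, −0.49 to 0.26 for Cxcl9 and −0.37 to 0.0841 for Cxcr4. The cause was not tested.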
